A study of Mus musculus with 12 samples.

Results

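Saa3 and 7 further genes for secreted defence proteins (Lcn2, Slpi, Hp, Cp, Lyz1, Lyz2 and Wfdc17) were followed in sorted tumour macrophages of mice. All 8 symbols were found among the 24346 in each table. They were chosen by their FPKM levels and by their differences between tumours and gates in these same 12 libraries, so their values are given as a description. Where members are counted among the genes that a fit called, the choice had the same differences in view, and the count is no evidence for them. The cells came from tumours of Arg1-RFP reporter mice, in which a red fluorescent protein reads out arginase 1. The sort kept CD45+ MHCII+ F4/80+ CD11b+ cells and left out those with CD90.2, B220, NK1.1, Ly6G or Ly6C on their surface. Bulk RNA-seq gave 4 groups of 3 libraries: RFP+ and RFP- macrophages from B16F10 tumours, numbered 12, 11 and 3 in their titles, and RFP+ and RFP- macrophages from MC38 tumours, numbered 1 to 3. B16F10 is a melanoma line and MC38 a colon carcinoma line. All 4 groups carried the reporter, and the design text gives 3 mice without tying a library to an animal.

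Secreted defence proteins act outside the cell, in body fluids and on surfaces. Serum amyloid A, haptoglobin and ceruloplasmin belong to the acute phase response, in which cytokines such as IL-1 and IL-6 act through NF-kB, STAT3 and C/EBP factors to raise plasma proteins, mostly in liver. Saa3 is the mouse serum amyloid A best known from macrophages and other cells outside the liver. Lysozyme cleaves bacterial cell walls and is a major secreted product of macrophages, while lipocalin 2 and haptoglobin are also stored in the granules of neutrophils.

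Values are FPKM, which relates the fragments of a gene to its transcript length and to the size of the library. Levels of different genes can thus be compared per length. How size was scaled between libraries was not stated. Arg1 was 615 to 916 FPKM in B16F10 RFP+ libraries and 56.2 to 125 FPKM in B16F10 RFP- libraries. It was 394 to 553 FPKM in MC38 RFP+ libraries and 40.6 to 58.5 FPKM in MC38 RFP- libraries, so every RFP+ library stood above every RFP- library. The macrophage core list (10 genes, all detected in every group) summed to 2216 to 4398 FPKM in the B16F10 libraries and 8760.0 to 12193 FPKM in the MC38 libraries. All 10 of its genes were lower in B16F10 in limma, with a median log2 difference of -2.25, beside 0.23 for all genes. The 5 melanocytic markers, genes of pigment cells, summed to 7632 to 10098 FPKM in the B16F10 libraries and 5.003 to 10.7 FPKM in the MC38 libraries. Read depth is unknown. The value below which the lowest 1% of non-zero FPKM fell was, in the B16F10 libraries, 2.61 to 3.49 times that of the MC38 library in which it was lowest. In bulk RNA, fewer cells of a type and less RNA per cell cannot be told apart. Total FPKM ran from 614875 to 815591.

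The control sequences just before the gene starts are shown for the genes whose values the comparisons turn on, from RefSeq on GRCm38.p6, a release of the mm10 build. They are given as the 250 bases before a listed start, 5′ to 3′ on the gene's strand. Promoter windows were found for 7 of the 8 genes, Cp with a pair of starts. The start used for the Saa3 window lies inside the gene span of 46711998 to 46719615 given below, not at its 5′ end. Saa3 (minus strand, chr7:46715677-46715926) is shown with matches to the C/EBP-like letters TTNNGNAA, on either strand, in capitals.
Saa3: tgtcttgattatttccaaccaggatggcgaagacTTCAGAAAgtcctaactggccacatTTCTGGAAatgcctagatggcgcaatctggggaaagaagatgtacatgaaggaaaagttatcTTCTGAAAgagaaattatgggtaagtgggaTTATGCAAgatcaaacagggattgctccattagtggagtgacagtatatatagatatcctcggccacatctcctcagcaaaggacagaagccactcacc
Lysozyme is encoded by 2 neighbouring copies on the minus strand of chromosome 10, and the run of 50 bases that both windows share is in capitals. Lyz1 lies at chr10:117292869-117293118 and Lyz2 at chr10:117282273-117282522.
Lyz1: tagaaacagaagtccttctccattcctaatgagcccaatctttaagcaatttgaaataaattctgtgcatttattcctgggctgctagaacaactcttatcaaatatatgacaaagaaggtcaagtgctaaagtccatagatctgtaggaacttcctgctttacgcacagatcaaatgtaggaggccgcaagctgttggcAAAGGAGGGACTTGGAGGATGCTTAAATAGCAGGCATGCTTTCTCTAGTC
Lyz2: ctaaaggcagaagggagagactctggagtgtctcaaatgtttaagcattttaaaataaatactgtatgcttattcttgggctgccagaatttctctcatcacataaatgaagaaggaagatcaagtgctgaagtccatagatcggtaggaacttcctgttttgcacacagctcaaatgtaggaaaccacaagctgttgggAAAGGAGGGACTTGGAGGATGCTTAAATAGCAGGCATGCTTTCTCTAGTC

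Saa3 held 4 matches to TTNNGNAA, at bases -216 to -209, -191 to -184, -129 to -122 and -99 to -92 before the start used for its window. At least 1 such match was present in 40.7% of the 32851 promoter windows of the table, and at least 4 in 0.852%, counted over 250 bases before and 50 after the start. Saa3 also held 1 match to the NF-kB-like GGNNNTTCC, at -187 to -179, which overlaps the second of the C/EBP-like matches, and 18.5% of all windows held that motif. The STAT-like TTCNNNGAA, present in 8.3% of all windows, was found in none of the members' windows. The hypoxia response core ACGTG was in 19.6% of all windows and among the members in Slpi alone, as 1 site read on both strands. Lyz1 and Lyz2 each held 1 C/EBP-like match, at different places, and 1 NF-kB-like match at the same place, -103 to -95. These are letter matches, not shown binding sites.

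Saa3 was the member with the largest difference between the RFP gates. It was 12.9, 14.3 and 41.6 FPKM in B16F10 RFP+ libraries 12, 11 and 3, against 2.57, 1.43 and 9.64 FPKM in the B16F10 RFP- libraries of the same numbers. Every RFP+ library stood above every RFP- library, and number 3 was the highest in both gates. The log2 differences within the pairs were 1.96, 2.65 and 2.001, with a mean of 2.204. They are on the log2(FPKM + 1) scale, which understates changes of low values. The SE of the mean difference was 0.55 in the fit of 4 group means and 0.30 in the fit with the pairs as blocks. In MC38, Saa3 was 4.17, 5.37 and 4.96 FPKM in RFP+ libraries 1 to 3, against 1.74, 1.99 and 0.0381 FPKM in the RFP- libraries. The groups again did not overlap, with pair differences of 0.91, 1.09 and 2.52. Their mean was 1.51 ± 0.55 (SE, 0.30 with the pairs as blocks), and 1.02 without RFP- library 3. The MC38 mean also depended on the pseudocount, at 2.60 with 0.1 and 0.67 with 5. The gate difference in B16F10 minus that in MC38 was 0.70 ± 0.78, or 0.70 ± 0.42 in the fit with the pairs as blocks. From the highest group mean to the lowest, Saa3 ran from B16F10 RFP+ (22.9 ± 16.2 FPKM, SD, n = 3) over MC38 RFP+ (4.83 ± 0.61) and B16F10 RFP- (4.55 ± 4.45) to MC38 RFP- (1.26 ± 1.06). The libraries of the middle groups overlapped each other, and those of B16F10 RFP- and MC38 RFP- overlapped as well.

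Saa3 lies on chromosome 7 (46711998 to 46719615, minus strand) beside the other serum amyloid A genes, with 8376 bases to Saa4 and 20881 bases to Saa1. These distances are counted from the end of that span, not from the start used for the promoter window. Saa1, Saa2 and Saa4, of which the first and the second encode the main plasma forms, were listed at 0 in all 12 libraries. Of 25 other acute phase genes on the list, 22 did not reach the filter of at least 1 FPKM in at least 3 libraries, and 5 were listed at 0 in every library (Saa1, Saa2, Saa4, Apcs and Itih4). The 3 that reached it were Serpina3g, Serpina3f and Trf.

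**Figure D1:**
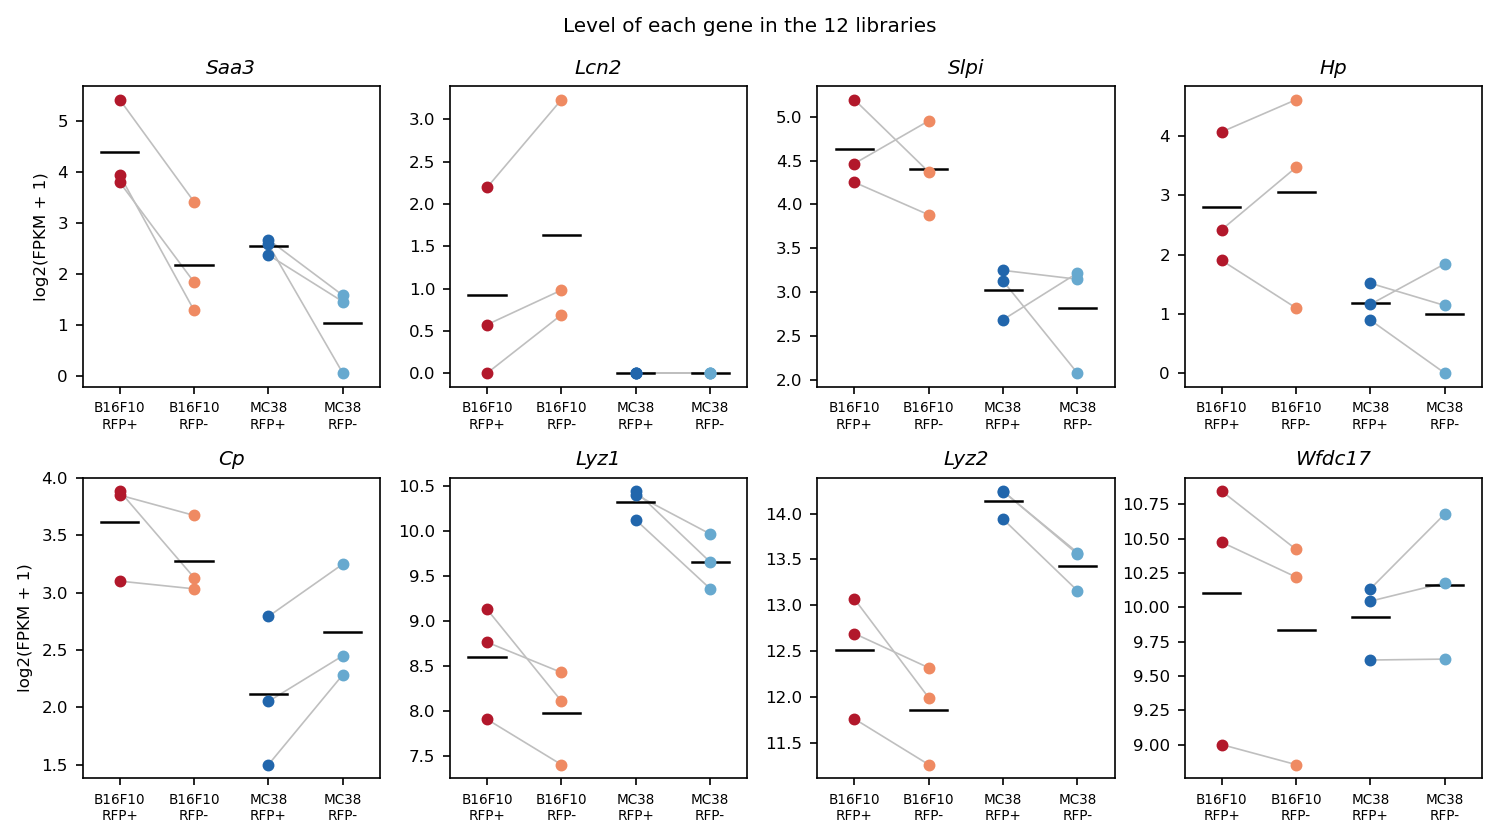
Level of each of the 8 genes as log2(FPKM + 1), 1 point per library, in B16F10 RFP+, B16F10 RFP-, MC38 RFP+ and MC38 RFP- macrophages (3 libraries each); black bars are group means and grey lines join libraries with the same title number. Saa3 points of RFP+ libraries lie above those of RFP- libraries within each tumour, Lcn2 is listed at 0 in all 6 MC38 libraries, and the lysozyme points of MC38 lie above those of B16F10.

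Lysozyme was the most abundant of these products. Lyz2, the macrophage form, was 8591, 3470.2 and 6613 FPKM in B16F10 RFP+ libraries 12, 11 and 3, against 4069, 2454 and 5105 FPKM in the RFP- libraries. It was 19359, 19408 and 15702 FPKM in MC38 RFP+ libraries and 12202, 12062 and 9144 FPKM in MC38 RFP- libraries. The RFP+ library was the higher one in 6 of 6 pairs. The groups did not overlap in MC38 and overlapped in B16F10, where number 11 was low in both gates. Lyz2 ranked between place 2 and place 15 of all genes in every library.

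The mean gate difference of Lyz2 was 0.65 ± 0.32 in B16F10 and 0.71 ± 0.32 in MC38 (log2, SE). Lyz1, the form best known from Paneth cells of the gut, gave 0.62 ± 0.30 and 0.66 ± 0.30, with 411.6 ± 161 FPKM in B16F10 RFP+ and 263 ± 88.4 FPKM in B16F10 RFP- libraries (SD, n = 3 each). Lyz1 was 1287 ± 149.9 FPKM in MC38 RFP+ and 821 ± 172 FPKM in MC38 RFP- libraries. Lyz1 stood at 6.52 to 8.30% of the Lyz2 level in all 12 libraries, and the log2 values of the copies had a Pearson r of 0.996 over these libraries, which share depth and scaling. The genes lie 5522 bases apart (Lyz2 at 117277541 to 117282272, Lyz1 at 117287795 to 117292868 on chromosome 10). Aligned over 1262 bases, a Lyz1 and a Lyz2 transcript of GENCODE vM21 were 96% identical, with a longest shared run of 118 bases. Of all windows of 50 bases in the Lyz1 transcript, 16.1% were also in Lyz2. How the counting divided reads between the copies is not given in the sources used here, so the Lyz1 level is uncertain, and whether it is more than reads from Lyz2 was not tested.

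Wfdc17 encodes a small secreted protein with a whey acidic protein (WAP) domain that is made by activated macrophages. It was 1422, 511 and 1839.7 FPKM in B16F10 RFP+ libraries 12, 11 and 3, against 1192, 462 and 1371 FPKM in B16F10 RFP- libraries. In MC38 it was 1056, 1124 and 784 FPKM in RFP+ libraries and 1158, 1640.0 and 788 FPKM in RFP- libraries. The RFP+ library was the higher one in 3 of 3 pairs of B16F10 and the lower one in 3 of 3 pairs of MC38, with mean differences of 0.27 ± 0.47 and -0.23 ± 0.47 (SE). The SE was 0.14 in the fit with the pairs as blocks. All 4 groups overlapped. Wfdc17 (chromosome 11, 83704056 to 83706269) has Wfdc18 as its neighbour at 2734 bases, a gene that averaged 1.57 to 2.198 FPKM in the 4 groups.

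Slpi, the secretory leukocyte protease inhibitor, blocks elastase and cathepsin G of neutrophils and also holds WAP domains. It was 18.1, 35.7 and 21.1 FPKM in B16F10 RFP+ libraries 12, 11 and 3, against 13.7, 19.7 and 30.02 FPKM in B16F10 RFP- libraries. It was 7.72, 5.43 and 8.49 FPKM in MC38 RFP+ libraries and 3.21, 8.30 and 7.85 FPKM in MC38 RFP- libraries. The gates overlapped in both tumours (0.24 ± 0.35 in B16F10 and 0.21 ± 0.35 in MC38), while all 6 B16F10 libraries stood above all 6 MC38 libraries. Slpi was the member with that pattern. The genes of these 2 serine proteases, Elane and Ctsg, averaged 0.0296 and 0.0044 FPKM over the 12 libraries.

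The members that handle iron, copper and hemoglobin had lower means in MC38. Ceruloplasmin (Cp), the copper ferroxidase that helps iron to leave cells, was 13.7, 13.4 and 7.57 FPKM in B16F10 RFP+ libraries 12, 11 and 3, against 7.75, 11.7 and 7.18 FPKM in B16F10 RFP- libraries. In MC38 it was 3.15, 1.83 and 5.93 FPKM in RFP+ libraries and 4.46, 3.87 and 8.50 FPKM in RFP- libraries. The RFP+ library was higher in 3 of 3 pairs of B16F10 and lower in 3 of 3 pairs of MC38, by means of 0.33 ± 0.35 and -0.54 ± 0.35 (SE, 0.19 with the pairs as blocks). Haptoglobin (Hp), which binds free hemoglobin, was 4.36, 2.74 and 15.8 FPKM in B16F10 RFP+ libraries, against 10.1, 1.14 and 23.5 FPKM in B16F10 RFP- libraries. It was 0.859, 1.86 and 1.24 FPKM in MC38 RFP+ libraries and 0, 1.21 and 2.59 FPKM in MC38 RFP- libraries. Hp had no common direction over the pairs (higher in 1 of 3 in B16F10 and in 2 of 3 in MC38). Lipocalin 2 (Lcn2), which withholds iron from bacteria by binding their siderophores, was 0.488, 0 and 3.58 FPKM in B16F10 RFP+ libraries and 0.974, 0.613 and 8.40 FPKM in B16F10 RFP- libraries. It was listed at 0 in all 6 MC38 libraries and did not reach the filter, so it was in no fit. The RFP- library was the higher one in 3 of 3 pairs of B16F10, the opposite order to Saa3.

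**Figure D2:**
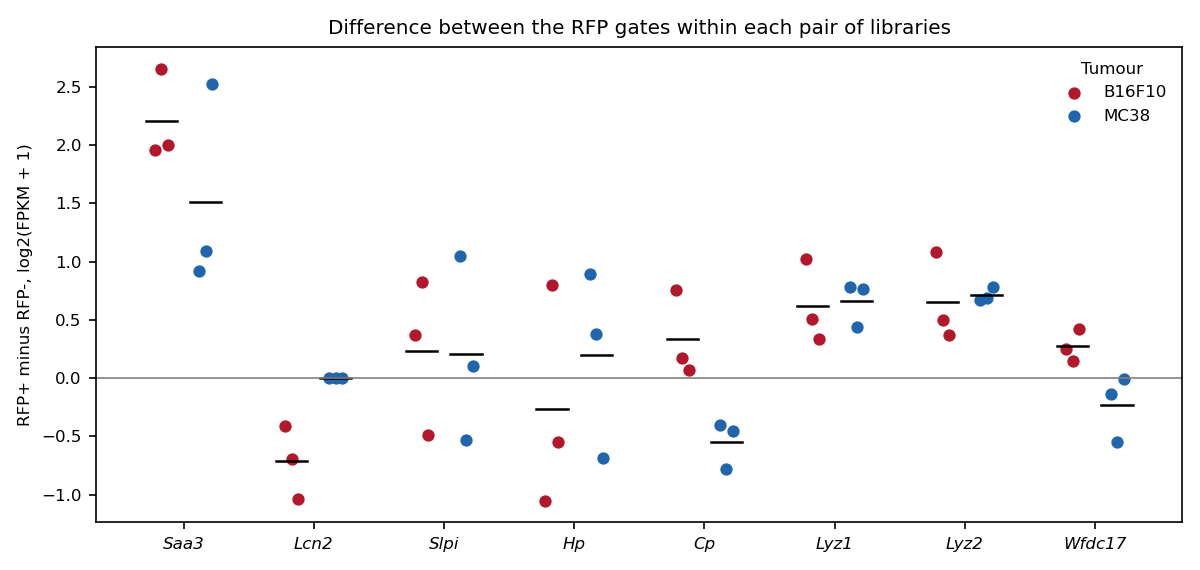
Difference RFP+ minus RFP- on the log2(FPKM + 1) scale within each pair of libraries with the same title number, for the 8 genes in B16F10 (red, 3 pairs) and MC38 (blue, 3 pairs); black bars are means. Saa3 and both lysozyme genes lie above 0 in 6 of 6 pairs, and Cp and Wfdc17 lie above 0 in B16F10 and below 0 in MC38. The Wfdc17 point of MC38 pair 3 lies almost at 0 (-0.007).

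Within each gate of B16F10, Hp, Lcn2 and Saa3 were highest in library 3, and neutrophil marker RNA was too. The neutrophil list (11 of its 12 genes found, among them no Ly6g) summed to 91.99, 50.3 and 366 FPKM in B16F10 RFP+ libraries 12, 11 and 3, against 126, 33.01 and 845 FPKM in B16F10 RFP- libraries. It summed to 40.9 to 50.2 FPKM in the 6 MC38 libraries, where the receptor gene Csf3r alone was 30.8 to 41.8 FPKM. The sum is thus made up differently in the tumours. S100a8, an abundant neutrophil calcium-binding protein gene, was 32.1, 7.37 and 183 FPKM in B16F10 RFP+ and 73.3, 3.81 and 477 FPKM in B16F10 RFP- libraries. In the MC38 libraries S100a8 was 0.205 to 6.09 FPKM. The 6 B16F10 libraries had the same order of Hp and of the neutrophil sum, from RFP- number 3 at the top over RFP+ 3, RFP- 12, RFP+ 12 and RFP+ 11 to RFP- number 11. Over these 6 libraries, Pearson's r with the log2 sum was 0.967 for Hp, 0.938 for Lcn2, 0.481 for Saa3 and -0.81 for Cp, as a description of libraries that share pairs and scaling. Of the granule genes on the list, Mpo, Ngp, Ltf, Camp and Elane stayed at or below 1.94 FPKM. Mmp8, also known from neutrophil granules, was 25.1 to 51.6 FPKM in B16F10 RFP+ and 3.48 to 20.4 FPKM in B16F10 RFP- libraries. The gate was set to leave out Ly6G+ cells. Ngp (1.94 FPKM), Mpo (1.65), Elane (0.356) and Camp (0.275) were nonetheless highest in B16F10 RFP- library 3. Ltf was highest in MC38 RFP- library 2 (0.304 FPKM). The part of neutrophil RNA in the Hp and Lcn2 values was not tested. Without the number 3 pair of B16F10, the Saa3 gate difference there was 2.31 ± 0.44.

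**Figure D3:**
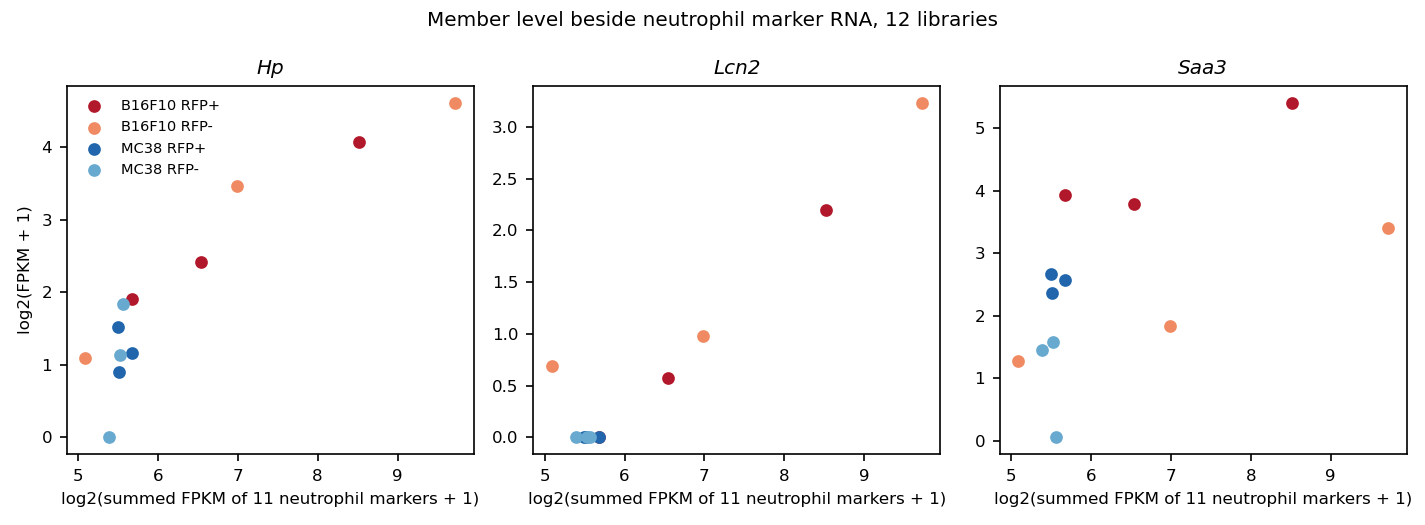
Level of Hp, Lcn2 and Saa3 as log2(FPKM + 1) against the summed FPKM of 11 neutrophil markers on the same scale, 1 point per library, coloured by group (3 libraries each). In B16F10, Hp and Lcn2 are highest in the RFP- and RFP+ libraries numbered 3, which hold the most marker RNA (845 and 366 FPKM). The B16F10 RFP+ points of Saa3 (12.9 to 41.6 FPKM) lie above the B16F10 RFP- points (1.43 to 9.64 FPKM). In the MC38 libraries Csf3r alone was 30.8 to 41.8 FPKM of the sum.

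In limma over 11808 genes, none of the 7 members tested passed an adjusted p under 0.05 between the gates of B16F10, where 0.127% of all genes were higher and 0.0508% lower in RFP+. None passed in MC38, where 0.0254% were higher and 0% lower. With the title number as a block, Saa3 alone of the members passed in B16F10 (higher, beside 0.830% of all genes higher and 0.525% lower), and none did in MC38 (0.356% higher and 0.0847% lower). Libraries of all RFP+ cells stood above those of RFP- cells for 1 member in B16F10 (Saa3, beside 5.72% of all genes above and 6.22% below). They did so for 3 members in MC38 (Saa3, Lyz1 and Lyz2, beside 6.33% above and 4.98% below). The difference of the gate differences passed for no member and for 0% of all genes in either direction; 455 genes had an unadjusted p under 0.05, and 4 genes passed with the block. Nothing is read from these counts for the members, since they were chosen with these differences in view. The median gate difference of the 7 members was 0.33 in B16F10 and 0.21 in MC38, beside -0.01 and 0.00 for all genes.

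Between the tumours, taken over both gates, Saa3, Slpi, Hp and Cp were higher in B16F10 and both lysozyme genes lower. The log2 differences B16F10 minus MC38 were 1.49 ± 0.39 for Saa3, 1.61 ± 0.25 for Slpi, 1.84 ± 0.54 for Hp and 1.06 ± 0.25 for Cp. They were -1.70 ± 0.21 for Lyz1, -1.60 ± 0.23 for Lyz2 and -0.08 ± 0.33 for Wfdc17. In limma 4 of 7 members were called higher and 2 lower, where 44.0% of all 11808 genes were called higher and 25.4% lower; the members were chosen by these differences, so nothing is read from that count. All B16F10 libraries stood above all MC38 libraries for Slpi and below them for Lyz1 and Lyz2, beside 31.9% of all genes above and 17.5% below. Without the number 3 pair of B16F10 the difference was 0.93 ± 0.28 for Saa3 and 1.13 ± 0.45 for Hp. Within RFP+ libraries Saa3 differed by a log2 of 1.84 with no overlap of the tumours, and within RFP- libraries by 1.15 with overlap.

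The tumour differences moved with the scaling. With FPKM scaled so that the 10 macrophage core genes matched between libraries, the median of all genes moved to a log2 difference of 1.90. Lyz1 and Lyz2 then had 0.30 ± 0.18 and 0.40 ± 0.19 and so turned direction, and Wfdc17 had 1.93. Saa3, Slpi, Hp and Cp had 2.94, 3.397, 3.11 and 2.73, each above the median of all genes. With melanocytic and macrophage RNA at such different levels, the tumour and the make-up of the sorted libraries cannot be told apart here.

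**Figure D4:**
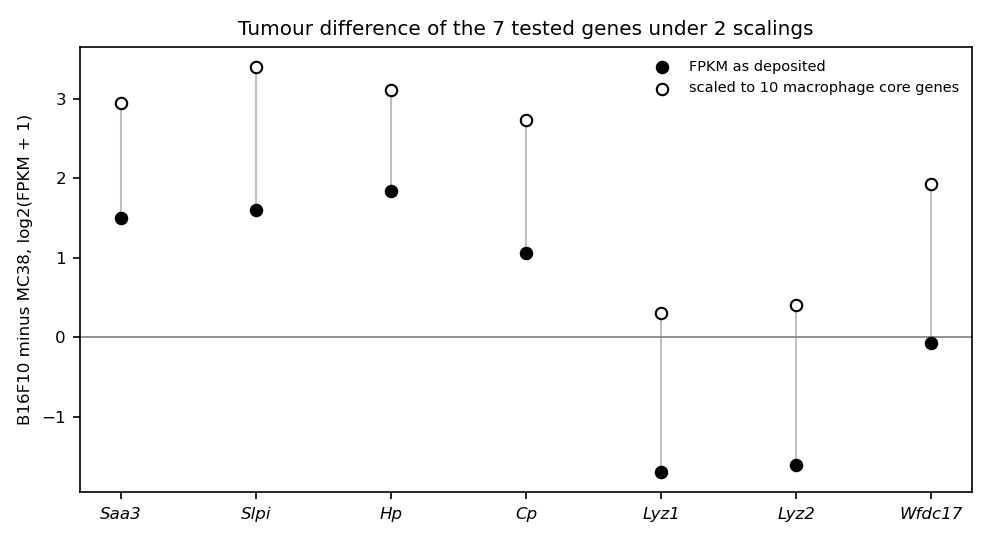
Log2 difference B16F10 minus MC38 over both gates for the 7 genes that reached the filter, from FPKM as deposited (filled points) and after scaling to 10 macrophage core genes (open points). Lyz1 and Lyz2 lie at -1.70 and -1.60 as deposited and at 0.30 and 0.40 after scaling, and the other 5 genes lie higher after scaling.

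The other genes of the pathway came from 7 lists with 120 genes found, of which 66 reached the filter. The lists were chosen with earlier results of these data known. Counts of their genes called, here and below, are therefore given as a description beside the shares of all genes. Between the gates of B16F10, 1 of the 66 was higher in RFP+ cells and 0 were lower. It was Cd36, a scavenger receptor that can bind serum amyloid A, with 102 ± 3.00 FPKM in RFP+ and 34.8 ± 13.6 FPKM in RFP- libraries (SD, n = 3 each). The groups differed by 1.60 ± 0.27 on the log2 scale, with a limma adjusted p of 0.0431. That call ended with a pseudocount of 0.1, with no filter, after core scaling, without the number 3 pair and without 1 of 8 single libraries: each B16F10 RFP+ library, B16F10 RFP- 12, each MC38 RFP+ library and MC38 RFP- 1 (adjusted p up to 0.163 over these settings in limma, and 0.00191 with the block).

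With the title number as a block, 8 of the 66 rose and 2 fell in B16F10 RFP+ macrophages, where 0.830% of all genes were called higher and 0.525% lower. Among receptors Cd36 and Cd163, which takes up haptoglobin bound to hemoglobin, rose (Cd163 2.62 ± 0.27 against 0.858 ± 0.25 FPKM, log2 0.97 ± 0.20, limma adjusted p = 0.0441). Heme oxygenase (Hmox1), the enzyme that breaks down heme, rose by a log2 of 1.40 ± 0.11 (limma adjusted p = 0.000199). The list of inducing cytokines and transcription factors also holds inhibitors. Of its genes, Il1a (1.71 ± 0.30), its antagonist Il1rn (0.96 ± 0.11) and the NF-kB inhibitor Nfkbia (0.64 ± 0.12) rose with limma adjusted p of 0.0214, 0.00178 and 0.033. The chemokines Ccl6 (1.18 ± 0.16) and Ccl9 (1.08 ± 0.14) rose with limma adjusted p of 0.00467 and 0.00472. The serpin gene Serpina3g (-1.15 ± 0.13) and complement factor B (Cfb, -0.63 ± 0.11) fell with limma adjusted p of 0.00145 and 0.0155. In the fit without the block these 9 genes other than Cd36 had adjusted p-values over 0.05.

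In MC38, 0 of the 66 passed between the gates in limma, and 6 had an unadjusted p under 0.05. With the block, which called 0.356% of all genes higher and 0.0847% lower, 2 of the 66 rose: Hmox1, with 186 ± 40.2 FPKM in RFP+ and 106 ± 17.9 FPKM in RFP- libraries (log2 0.79 ± 0.11, limma adjusted p = 0.0121), and the plasma iron carrier gene Trf (0.59 ± 0.11, limma adjusted p = 0.0472). The most abundant genes of the iron list, the ferritin chains Ftl1 and Fth1, had gate differences of 0.01 ± 0.21 and 0.32 ± 0.17 in B16F10 and of 0.30 ± 0.21 and 0.33 ± 0.17 in MC38. The receptor genes with the highest means, Tlr2 and Scarb1, differed between the gates of MC38 by 0.03 ± 0.19 and -0.30 ± 0.16. Lgals3 and Cst3, the most abundant other secreted defence genes, had 0.32 ± 0.25 and -0.51 ± 0.17 in B16F10 and 0.56 ± 0.25 and -0.13 ± 0.17 in MC38. On the list of inducing cytokines and transcription factors, Il1b and Nfkbia had the highest means. Their differences were 0.42 ± 0.73 and 0.64 ± 0.43 in B16F10 without the block and 0.09 ± 0.73 and 0.21 ± 0.43 in MC38. The proteases Ctss and Mmp9 had 0.55 ± 0.18 and -0.40 ± 0.39 in B16F10 and 0.13 ± 0.18 and 0.02 ± 0.39 in MC38. None of these values passed the threshold, and that does not show that the gates were alike. For the difference of the gate differences limma called 0 of the 66, both in the plain fit and in the fit with pairs as blocks, and 5 had an unadjusted p under 0.05. The 2 most abundant genes of each list lay there between -0.60 (Serpina3g) and 0.43 (Nfkbia).

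Between tumours 16 of the 66 listed genes were higher in B16F10 and 40 lower, where 44.0% of all genes were called higher and 25.4% lower. Their median log2 difference was -0.79, beside 0.23 for all genes. The list of inducing cytokines and transcription factors had 18 lower and 2 higher of 21 tested. It mixes inducers of acute phase genes with inhibitors such as Il1rn, Nfkbia and Socs3, so its counts do not measure inducing signal. Il1b was 207 ± 219 and 160.5 ± 163 FPKM in B16F10 RFP+ and RFP- libraries, against 2327 ± 953 and 2131 ± 578 FPKM in MC38 RFP+ and RFP- libraries (log2 -4.10 ± 0.52, limma adjusted p = 1.06e-05). The NF-kB co-activator Nfkbiz (-3.13 ± 0.35), the STAT3 target and cytokine signal brake Socs3 (-2.59 ± 0.23) and Il1a (-2.54 ± 0.80) were lower as well (limma adjusted p = 3.53e-06, 3.46e-07 and 0.012). The 2 genes higher in B16F10 were Il6st (0.55), the signal chain of the IL-6 receptor, and Cebpd (0.36), and neither passed without the B16F10 number 3 pair. Saa3 and Hp thus had higher mean FPKM in B16F10, where most genes of this list, inducers and inhibitors together, had lower FPKM. After core scaling 6 of the 21 were higher and 3 lower (median 0.27, below the 1.90 of all genes). Of all 11808 genes 10330 were then higher and 451 lower. With quantile normalization 0 of the 21 were higher and 18 lower, beside 4208 of all genes higher and 3809 lower.

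**Figure D5:**
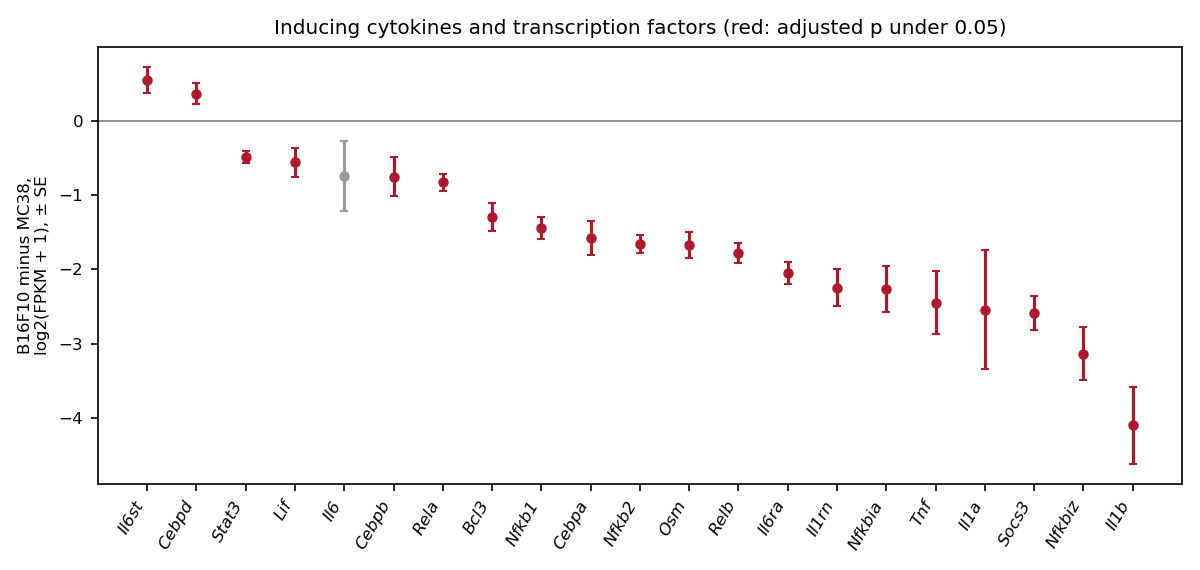
Log2 difference B16F10 minus MC38 over both gates, with its SE, for the 21 genes of the list of inducing cytokines and transcription factors that reached the filter. Inhibitors such as Il1rn, Nfkbia and Socs3 are among them. Red points passed an adjusted p under 0.05 in limma and the grey point did not. Il1b lies lowest at -4.10 and Il6st highest at 0.55.

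Receptors for the members were lower in B16F10 for 5 of 8 and higher for 2. Tlr2, a receptor that serum amyloid A can engage, averaged 22.3 ± 4.88 and 26.4 ± 5.48 FPKM in B16F10 RFP+ and RFP- libraries, against 373 ± 61.2 and 363 ± 35.1 FPKM in those of MC38 (log2 -3.88 ± 0.13, limma adjusted p = 5.58e-11). The formyl peptide receptor genes Fpr1 (-2.82 ± 0.35) and Fpr2 (-2.40 ± 0.31) and the ATP receptor gene P2rx7 (-1.25 ± 0.17) were lower too, with limma adjusted p of 8.43e-06, 1.31e-05 and 2.4e-05. The lipocalin 2 receptor genes Slc22a17 and Lrp2 averaged 0.109 and 0.0542 FPKM and did not reach the filter. After core scaling 5 of the 8 were higher and 3 lower, beside 10330 of all 11808 genes higher and 451 lower. The median log2 difference of the 8 was then 0.98, against -0.90 as deposited, and P2rx7 turned to 0.65.

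Of 14 genes of iron and copper handling, 6 were higher and 4 lower in B16F10. The transferrin receptor gene Tfrc averaged 76.8 ± 11.1 and 71.6 ± 10.8 FPKM in B16F10 RFP+ and RFP- libraries, against 11.6 ± 1.49 and 12.3 ± 1.07 FPKM in those of MC38 (log2 2.53 ± 0.11, limma adjusted p = 6.35e-10). Bdh2 (1.78 ± 0.18), which helps to make a mammalian siderophore, and Hmox1 (1.76 ± 0.18) were higher, with limma adjusted p of 1.03e-06 and 1.56e-06. The phagosomal metal transporter gene Slc11a1 was lower (-1.77 ± 0.15, limma adjusted p = 3.03e-07) and turned to 0.23 after core scaling. After core scaling 13 of the 14 were higher and 0 lower, beside 10330 of all 11808 genes higher and 451 lower.

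All 3 acute phase genes tested were lower in B16F10: Serpina3g (-2.49 ± 0.18), Serpina3f (-2.39 ± 0.23) and Trf (-0.63 ± 0.17), with limma adjusted p of 6.54e-08, 7.83e-07 and 0.00497. After core scaling 1 was higher and 2 lower, beside 10330 of all 11808 genes higher and 451 lower, and Trf turned to 1.37. Of 14 other secreted defence genes 3 were higher and 8 lower. Complement factor B (Cfb) averaged 18.3 ± 3.49 and 29.1 ± 6.53 FPKM in B16F10 RFP+ and RFP- libraries, against 426 ± 127 and 427 ± 144 FPKM in those of MC38 (log2 -4.12 ± 0.18, limma adjusted p = 4.96e-10). Complement C3 (-3.31 ± 0.19) and the resistin-like gene Retnla (-3.27 ± 1.06) were lower and Ccl6 (1.97 ± 0.39) was higher, with limma adjusted p of 5.55e-09, 0.014 and 0.00058. After core scaling 11 of these 14 were higher and 2 lower, beside the same 10330 higher and 451 lower of all genes.

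The 2 WAP domain genes tested were both higher after core scaling, as were 10330 of all 11808 genes. As deposited, Wfdc21 was higher in B16F10 (1.32 ± 0.53, limma adjusted p = 0.0389). Wfdc21 did not pass without the number 3 pair (0.42 ± 0.21, limma adjusted p = 0.105). A list of 9 protease genes, drawn up around Slpi, mixes serine proteases with others that Slpi is not known to inhibit, such as the cysteine protease cathepsin S (Ctss) and the metalloprotease Mmp9. Of its 4 genes tested, 2 were higher and 2 lower. After core scaling 2 were higher and 1 lower, beside 10330 of all 11808 genes higher and 451 lower. Ctss was lower in B16F10, with 1210.3 ± 221 and 826 ± 165 FPKM in RFP+ and RFP- libraries against 7567 ± 721 and 6917 ± 503 FPKM in those of MC38 (log2 -2.87 ± 0.13, limma adjusted p = 6.56e-10). Mmp9 was lower (-1.004 ± 0.28, limma adjusted p = 0.00559) and turned to 0.56 after core scaling. Prtn3 and Prss57, at averages of 0.147 to 1.60 FPKM in the 4 groups, were higher by 0.64 ± 0.22 and 0.56 ± 0.16 (limma adjusted p = 0.0203 and 0.00653). Prtn3 did not pass without the number 3 pair. With averages this near the filter, both may have reached it through their B16F10 values alone, so nothing is read from their direction.

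Among 7742 genes with a mean of at least 5 FPKM, those whose log2 values followed Saa3 most closely over the 12 libraries were Snx4 (Pearson's r 0.917), Cd36 (0.908), Spp1 (0.902), which encodes osteopontin, and Mmp12 (0.884), a macrophage elastase. Spp1 averaged 3687 FPKM in B16F10 RFP+, 551 in B16F10 RFP-, 546 in MC38 RFP+ and 191 in MC38 RFP- libraries, the same order of groups as Cd36 (102, 34.8, 34.5 and 20.4 FPKM). Those closest to Slpi were Orc2 (0.957), Ankrd46 (0.954), Ctnnd1 (0.946) and Hspa14 (0.930). Within the tumours, the r with Slpi ran from 0.649 (Orc2) to 0.816 (Hspa14) in B16F10 and from 0.414 (Hspa14) to 0.915 (Orc2) in MC38. For the genes like Saa3, it ran from 0.852 (Cd36) to 0.963 (Snx4) in B16F10 and from 0.690 (Snx4) to 0.921 (Cd36) in MC38. Orc2 averaged 22.1 and 17.5 FPKM in B16F10 RFP+ and RFP- libraries and 8.24 and 8.17 FPKM in those of MC38. The libraries share tumour, depth and scaling, and these likenesses are given as a description.

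Among the members themselves, the closest pair over the 12 libraries after the lysozyme genes was Lcn2 and Hp, with r of 0.871. Lcn2 was listed at 0 throughout MC38. Over the 6 libraries of B16F10 Lcn2 and Hp had 0.854, below Wfdc17 with Lyz2 (0.862) and with Lyz1 (0.860). Saa3 and Hp had r of 0.553 over the 12 and 0.452 over the 6 of B16F10. Cp ran against Hp in B16F10 (r of -0.86) and not in MC38 (0.154). Saa3 followed Lyz2 within each tumour (0.692 in B16F10 and 0.935 in MC38, 6 libraries each) and not over both (-0.11).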

How the data were processed

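The authors deposited 1 table of FPKM per library. The unit is per the file headers. Per the labels, RNA was taken up with TRI Reagent, and libraries were made with SMART-Seq HT and Nextera XT kits. The submitters' processing notes name TopHat2 2.1.1, Bowtie2 2.2.8, SAMtools 0.1.18, Cuffdiff 2.2.1 and mm10. The strand setting, annotation and scaling between libraries were not stated in the labels or headers, and read depth is unknown.

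The deposited FPKM were put on the log2(FPKM + 1) scale, and the 11808 genes that reached 1 FPKM in 3 or more libraries were fitted in R 4.3.3 with limma 3.58.1 (4 group means, eBayes with trend, two-sided, Benjamini-Hochberg over all genes kept, threshold 0.05). No symbol was repeated in a table. Libraries of a number deviated together (r from 0.228 to 0.443, over the limit of 0.1), so a fit with the number as a block is also given, as a random block between tumours (correlation 0.291). P-values measure the spread between libraries, which may be partly technical. The code of the fits was run on simulated normal values without a general tumour difference. That does not show how well the fits suit these libraries.

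The members and lists were chosen with earlier results of these data known. The naming rule took, per list and comparison, up to 4 genes past the threshold by size, or the 2 with the highest mean. After the pairing check the same rule was used on the fit with blocks. It named the 4 genes most like Saa3 and Slpi. Further genes named only with levels were chosen after their values were seen. Alternatives were pseudocounts of 0.1 and 5, no filter, quantile normalization, macrophage core scaling, the block, and each library left out. The B16F10 number 3 pair was left out as a choice made after seeing the data.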

Additional observations from a re-analysis of the deposited data

Results flagged for a closer look

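Cp and Wfdc17 had gate differences of opposite sign in the tumours in every pair of libraries, though some lay near 0. Cp was higher in RFP+ macrophages in 3 of 3 pairs of B16F10 (mean log2 pair difference 0.33) and lower in 3 of 3 pairs of MC38 (-0.54). Wfdc17 was higher in RFP+ macrophages in 3 of 3 pairs of B16F10 (0.27) and lower in 3 of 3 pairs of MC38 (-0.23). The smallest pair differences were -0.007 for Wfdc17 in MC38 pair 3 and 0.07 for Cp in B16F10 pair 3. Over 19 other settings the mean gate difference of Wfdc17 changed sign in 2 in B16F10 and in 1 in MC38, and that of Cp in 0 in each tumour. The difference of the gate differences was 0.88 ± 0.50 for Cp and 0.50 ± 0.66 for Wfdc17 (log2, SE; with the pairs as blocks the SE was 0.27 for Cp and 0.19 for Wfdc17), and neither was past the threshold in limma, with or without the block. Both were found among 8 genes chosen with these values in view, so the pattern is given as values only.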

How the results depend on the processing

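Between the gates of B16F10, 21 genes passed in limma; 10 did with a pseudocount of 0.1, 7 with no filter, 7 without the B16F10 number 3 pair, 160 with the replicate block, and 4 (without RFP- 12) to 90 (without RFP- 11) with single libraries left out. Of the listed genes 1 passed there; 0 did with a pseudocount of 0.1, with no filter, after core scaling or without the number 3 pair, 2 with quantile normalization, 10 with the block, and 0 to 2 with single libraries left out. In MC38, 3 genes passed; 11 did with a pseudocount of 5, 6 with quantile normalization, 1 after core scaling, 5 without the number 3 pair of B16F10, 52 with the block, and 1 (without RFP- 1) to 8 (without RFP+ 3) with single libraries left out. Of the listed genes 0 passed there, and 2 did with the block. For the difference of the gate differences 0 passed; 2 did with no filter, 1 without the number 3 pair, 4 with the block, and 0 to 1 with single libraries left out. Between tumours 5200 genes were higher in B16F10 and 2998 lower, against 4208 and 3809 with quantile normalization and 10330 and 451 after core scaling. The listed genes split into 16 higher and 40 lower, against 11 and 40 with quantile normalization and 40 and 11 after core scaling. After core scaling the tumour differences turned to 0.30 for Lyz1, 0.40 for Lyz2, 1.37 for Trf, 0.65 for P2rx7, 0.23 for Slc11a1 and 0.56 for Mmp9; the cause was not tested. With quantile normalization that of Lyz2 was -0.55. The Saa3 gate difference kept its sign in all 19 other settings in each tumour, but its size ran from 1.499 to 2.82 in B16F10 and from 0.67 (pseudocount 5) to 2.60 (pseudocount 0.1) in MC38. Depth is unknown, which limits low genes such as Lcn2.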

Other observations

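Within the neutrophil list, Mmp8, a collagenase gene known from neutrophil granules, did not follow S100a8 between the gates of B16F10. Within each of these gates both genes rose from library 11 over 12 to 3. Mmp8 was chosen here after its values were seen. Mmp8 was 31.0, 25.1 and 51.6 FPKM in B16F10 RFP+ libraries 12, 11 and 3, against 5.50, 3.48 and 20.4 FPKM in B16F10 RFP- libraries, so it was higher in RFP+ libraries in 3 of 3 pairs, where S100a8 was lower in 2 of 3. Csf3r, the receptor gene for the growth factor of neutrophils, was 5.23 to 8.95 FPKM in B16F10 RFP+ and 5.91 to 21.6 FPKM in B16F10 RFP- libraries, against 30.8 to 41.1 and 33.8 to 41.8 FPKM in MC38 RFP+ and RFP- libraries. It thus ran against S100a8 between tumours. Both genes are part of the neutrophil sum given beside Hp and Lcn2.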
